A study of Homo sapiens with 12 samples.

Results

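The cytosolic ribosomal protein genes were examined in 3 human hepatocellular carcinoma cell lines cultured with and without lactate. A gene was taken as a member when its symbol was RPL or RPS followed by a number and at most a short suffix, or was RPLP0, RPLP1, RPLP2 or RPSA, which gave 84 of the 62710 genes in the tables. These comprise 46 large-subunit genes, 31 small-subunit genes and 7 paralogues (RPL3L, RPL7L1, RPL10L, RPL22L1, RPL26L1, RPL39L and RPS27L). RNA was sequenced from HLF, SNU475 and PLC/PRF/5, all established lines, in 6 groups of 2 libraries. HLF control, SNU475 control and PLC/PRF/5 control cells carried the label control with no further agent named. HLF lactate, SNU475 lactate and PLC/PRF/5 lactate cells received lactate at 20 mM, added as lactic acid, for 24 h. The title of the study concerns a loop from lactate to glycolysis through lactylation of histone H4. The comparisons here ask whether lactate or the cell line is accompanied by a difference in these genes.

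The ribosome is built from ribosomal RNA and from one copy of most ribosomal proteins in each subunit, so their mRNAs are made in similar amounts in most cells and are among the most abundant of all. RPL proteins belong to the large subunit, which forms peptide bonds, and RPS proteins to the small subunit, which reads the mRNA. Most of these mRNAs begin with a C followed by a run of pyrimidines, the 5′ terminal oligopyrimidine tract, through which mTOR and LARP1 control their translation. Such control acts on translation and on mRNA stability, and only mRNA levels were measured here.

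Of the 84 members, 67 had a promoter in the RefSeq table (GRCh38.p14), which holds 250 bases before and 50 bases after each annotated start. A run of at least 7 pyrimidines that touched the 5 bases on either side of an annotated start was found in 52 of the 67 (77.6%), against 5063 of all 27195 genes (18.6%). It was present in 51 of 62 members without the paralogues (82.3%), in 1 of 5 paralogues and in 11 of 69 mitochondrial ribosomal protein genes (15.9%). Where a gene had several starts the one with the longest run was used, for all genes alike. The windows below run from 30 bases before the start to 15 bases after it, with that run in capitals. They are shown because the members named in the results differ in this feature. The first 8 carry the run and the last 5 do not.

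RPL13 (chr16:89560652-89560696, plus strand): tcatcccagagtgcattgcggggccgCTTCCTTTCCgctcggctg
RPL19 (chr17:39200293-39200337, plus strand): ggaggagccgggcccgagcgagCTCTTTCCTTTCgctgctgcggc
RPL26 (chr17:8383179-8383223, minus strand): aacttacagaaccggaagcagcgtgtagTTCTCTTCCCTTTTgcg
RPS6 (chr9:19380222-19380266, minus strand): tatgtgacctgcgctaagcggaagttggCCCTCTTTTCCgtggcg
RPSA (chr3:39406690-39406734, plus strand): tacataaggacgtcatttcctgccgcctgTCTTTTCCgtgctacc
RPS27 (chr1:153990732-153990776, plus strand): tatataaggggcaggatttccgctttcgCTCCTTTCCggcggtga
RPL22 (chr1:6199581-6199625, minus strand): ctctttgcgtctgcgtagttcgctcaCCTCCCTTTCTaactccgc
RPL22L1 (chr3:170870181-170870225, minus strand): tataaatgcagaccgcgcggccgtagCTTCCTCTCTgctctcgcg
RPL27 (chr17:42998389-42998433, plus strand): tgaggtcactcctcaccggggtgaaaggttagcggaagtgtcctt
RPS27L (chr15:63157463-63157507, minus strand): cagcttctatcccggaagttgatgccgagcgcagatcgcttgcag
RPL26L1 (chr5:172958699-172958743, plus strand): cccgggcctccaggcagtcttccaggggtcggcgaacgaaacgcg
RPL10L (chr14:46651767-46651811, minus strand): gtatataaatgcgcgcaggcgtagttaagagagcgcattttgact
RPL7L1 (chr6:42879586-42879630, plus strand): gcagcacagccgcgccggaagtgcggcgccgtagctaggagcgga

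RPS27 and RPL26 carry the run and their paralogues RPS27L and RPL26L1 do not, while RPL22 and RPL22L1 both carry it. Of the motifs searched on both strands of the 300 bases, CCGGAAG, the core of an ETS site, was in 24 of 67 members (35.8%) and in 12.2% of all genes. CTTTCC was in 31 members (46.3%) and in 30.3% of genes, and it can lie inside the pyrimidine run. CACGTG was in 7.46% of members against 8.79% of genes, and TATAAA in 10.4% against 14%. An annotated start is not a measured one, and none of these matches was tested against expression.

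Library totals ran from 16533437 to 22187849 expected counts. HLF and SNU475 lacked 6 of 9 hepatocyte markers at a mean of 1 TPM (an estimate of transcripts scaled by gene length and library total), ALB, APOA1, APOB, HNF4A and TTR in both, whereas PLC/PRF/5 had all 9. Counts on mitochondrially encoded genes varied from 3.39% to 15.05% of a library, and the libraries numbered 2 of SNU475 held the largest shares, 15.05% in the control and 13.88% with lactate. The labels name no separate cultures for the 2 libraries of a group, so the spread between them, and every p-value drawn from it, may be technical.

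Ribosomal protein genes took between 3.27% and 5.03% of the counts in a library. HLF control libraries gave 4.87% and 4.95%, and HLF lactate libraries 4.31% and 5.03%. SNU475 control libraries gave 4.01% and 4.77%, and SNU475 lactate libraries 3.27% and 4.49%. PLC/PRF/5 control libraries gave 3.46% and 3.85%, and PLC/PRF/5 lactate libraries 3.80% and 3.94%. The control and lactate ranges overlapped in every line, and the untreated PLC/PRF/5 values lay below those of both other untreated lines. As mean ± SD of 2 libraries, HLF control held 4.91% ± 0.0571, SNU475 control 4.39% ± 0.541 and PLC/PRF/5 control 3.66% ± 0.274.

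**Figure D1:**
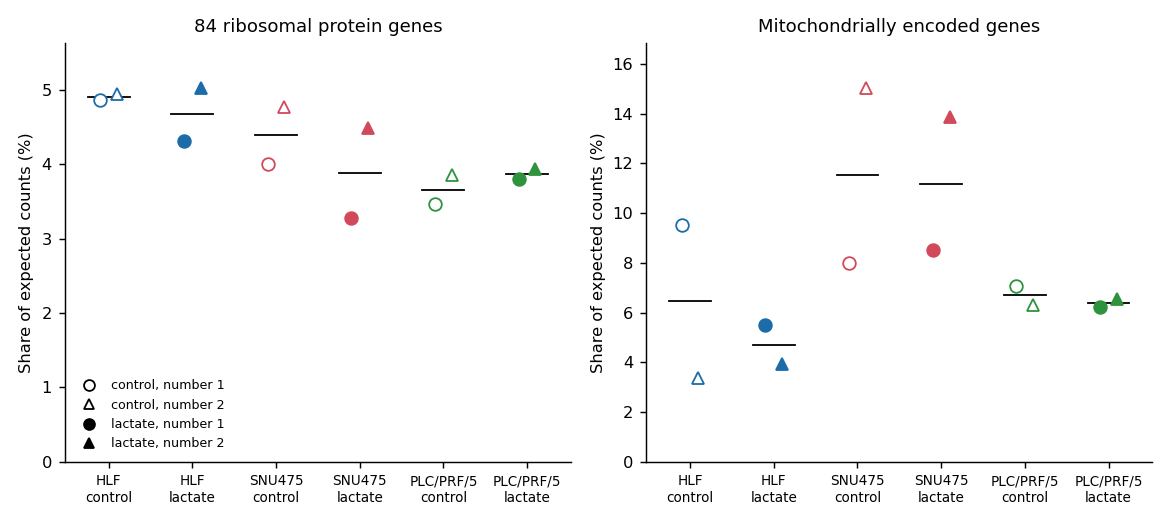
Share of expected counts (%, from 0) on the 84 ribosomal protein genes (left) and on mitochondrially encoded genes (right) in each of the 12 libraries. Circles are libraries numbered 1 and triangles those numbered 2, open for control and filled for lactate, and a bar marks each group mean. The ribosomal protein share runs from 3.27% (SNU475 lactate 1) to 5.03% (HLF lactate 2), and control and lactate points overlap in each line.

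Because these genes are short, they take a larger share of transcripts than of reads. Without the paralogues their median effective length, the number of positions a fragment can start from, was 384 bases against 1967 for all genes tested. Their share of TPM was 14.5% ± 1.64 in HLF control, 12.9% ± 0.808 in SNU475 control and 12.5% ± 0.737 in PLC/PRF/5 control. The 77 genes outside the paralogues had a median level of 1792 TPM in HLF control, 1644 TPM in SNU475 control and 1360 TPM in PLC/PRF/5 control.

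The highest mean levels over the 12 libraries were those of RPS27 (3903 TPM), a zinc finger protein of the small subunit, RPL41 (3522 TPM), the smallest ribosomal protein, RPS21 (3103 TPM), RPL37A (2972 TPM) and RPS29 (2950 TPM). RPS29, another zinc finger protein of the small subunit, had 1918 and 2193 TPM in HLF control, 2094 and 2547 TPM in SNU475 control, and 4065 and 4725 TPM in PLC/PRF/5 control. RPS21 had 2016 and 2234 TPM in HLF control, 2782 and 3313 TPM in SNU475 control, and 4098 and 4006 TPM in PLC/PRF/5 control. Both were listed highest in PLC/PRF/5 on this scale. On scaled counts RPS21 was not higher in PLC/PRF/5 than in SNU475, with a log2 fold change of -0.22. The lowest effective length among these 77 genes was 48.71 bases, that of RPS29, so its TPM rests on few fragment positions. RPL22, which binds the EBER RNAs of Epstein-Barr virus, was the lowest of the 77 in HLF control (453 TPM) and in PLC/PRF/5 control (375 TPM), and RPL29 was the lowest in SNU475 control (421 TPM).

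**Figure D2:**
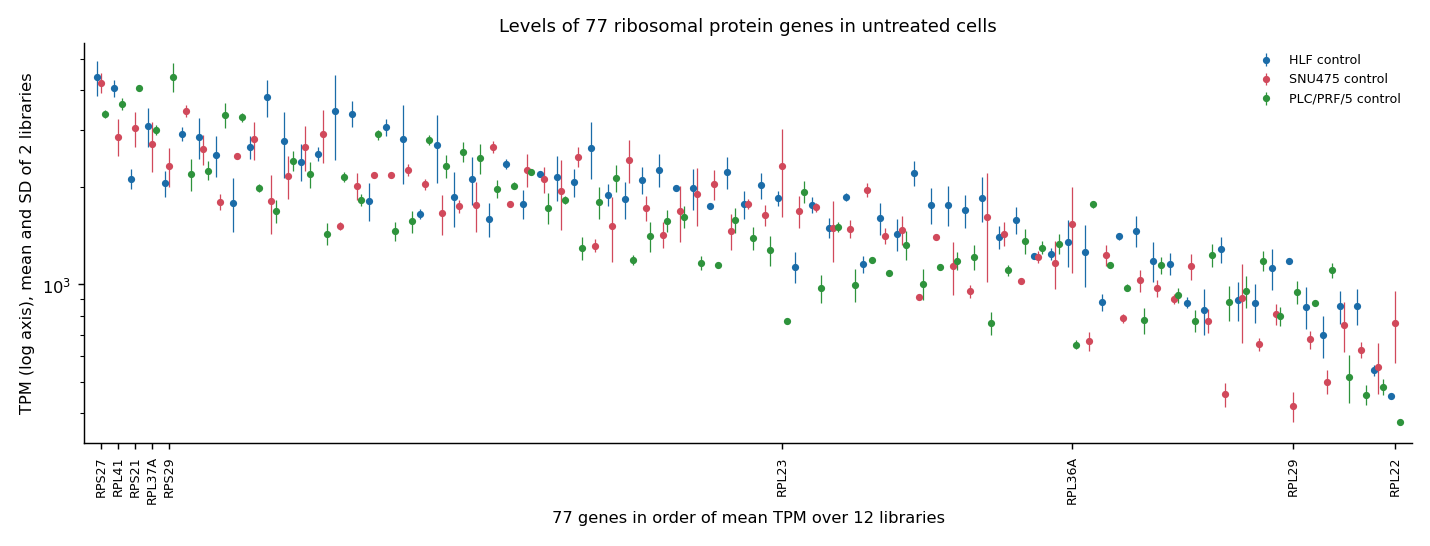
TPM on a log axis for 77 ribosomal protein genes without the paralogues, ordered by the mean over 12 libraries, in the untreated groups; points are means and bars SD of 2 libraries, and only genes named in the text are labelled. The means lie between 375 and 4395 TPM, and PLC/PRF/5 points lie apart from the others for RPS29 and RPS21 (above) and for RPL36A and RPL23 (below).

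The median large-subunit gene was lower than the median small-subunit gene in every library. The ratio of the medians, in TPM, was 0.827 to 0.904 in the HLF libraries, 0.815 to 0.907 in the SNU475 libraries and 0.753 to 0.781 in the PLC/PRF/5 libraries. The 4 PLC/PRF/5 values lay below the other 8.

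Libraries of the same group differed in part by a common shift of these genes. On scaled counts, the median difference between libraries 1 and 2 was 0.16 log2 units in HLF control, with 72 of 83 tested members higher in library 1. It was -0.21 in HLF lactate (81 lower in library 1), -0.43 in SNU475 control (79 lower) and -0.70 in SNU475 lactate (81 lower). In PLC/PRF/5 it was -0.09 in control (73 lower) and -0.06 with lactate (54 lower). The members scattered around these medians with an SD of 0.08 to 0.33, against 0.27 to 0.71 for all genes. Libraries of 1 group could thus differ by up to 0.70 log2 units in the whole set.

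With lactate, no ribosomal protein gene passed the test in any line. Here and below a call is an adjusted p under 0.05 in the quasi-likelihood test of edgeR, adjusted over all 18355 genes tested. A total of 83 members was tested, all but RPL3L, which had 0 to 5 counts in a library. None was called in HLF (0.0% of all genes tested were), in SNU475 (0.0%), in PLC/PRF/5 (0.0%) or for the interaction of lactate with line (0.0%). None was called for the mean effect over the 3 lines, where 0.42% of all genes were. At an unadjusted p under 0.05 there was 1 member in HLF, 0 in SNU475, 0 in PLC/PRF/5, 3 for the mean and 1 for the interaction. Of all genes tested, 6.28%, 11.6%, 5.92%, 15.8% and 3.51% had such a p, in the same order. DESeq2 called 0 members in each of these comparisons, where it called 0.229% of all genes in HLF, 1.49% in SNU475, 0.496% in PLC/PRF/5, 5.16% for the mean and 0.049% for the interaction. The fit with the replicate number as a block also called 0 members, where it called 0.0163%, 0.251%, 0.659%, 6.91% and 0.0327% of all genes in the same order.

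The medians over the 83 members were small and lay on both sides of 0. In HLF the median log2 fold change was -0.17, with 78 members below 0, beside a median of 0 for all genes. In SNU475 it was -0.10, with 70 below 0, beside 0.01 for all genes. In PLC/PRF/5 it was 0.03, with 51 above 0, beside 0.03 for all genes. The mean over lines was -0.07, with 70 below 0, beside 0.03 for all genes. The standard error of a single member had a median of 0.245 in HLF and 0.142 for the mean over lines, RPL10L and RPL39L aside. With RPL10L set to its lower bound and RPL39L left out in HLF, the median there was again -0.17.

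Single libraries set the sign in SNU475. The SNU475 median became 0.22 without lactate library 1 and 0.09 without control library 2, and -0.32 without control library 1 and -0.52 without lactate library 2. The mean over lines became 0.03 without SNU475 lactate library 1, 0.01 without SNU475 control library 2 and -0.20 without SNU475 lactate library 2. Without both SNU475 libraries numbered 2, those with the largest mitochondrial shares, the SNU475 median was -0.27. On deposited TPM the HLF median was 0.03, beside 0.10 for all genes, so it lay above 0 but below the other genes.

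**Figure D3:**
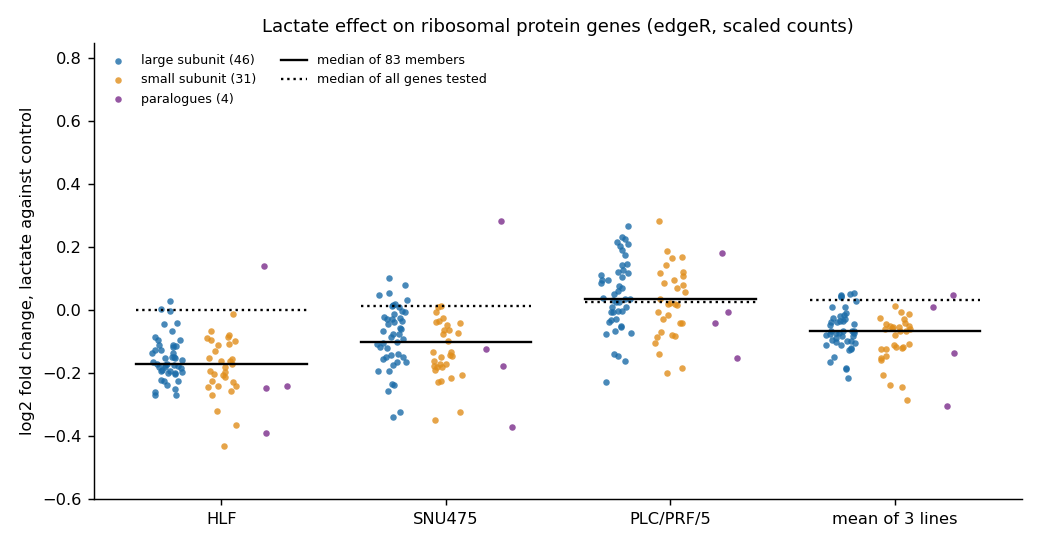
Fitted log2 fold change of lactate against control for tested ribosomal protein genes, in each line and for the mean of the 3 lines, by subunit; RPL10L and RPL39L, with 0 counts in HLF control, are not drawn. The solid line is the median of the 83 members (-0.17, -0.10, 0.03 and -0.07) and the dotted line that of all genes tested. None of the points is a call.

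For the mean over lines the median was -0.07 in 46 large-subunit genes (38 below 0) and -0.07 in 31 small-subunit genes (30 below 0). RPSA, the laminin receptor precursor that sits on the small subunit, was at 899 and 933.6 CPM (counts over the scaled library size) in HLF control and at 704 and 843 CPM with lactate. In SNU475 it was at 543 and 612 CPM in control and at 429 and 478 CPM with lactate, and in PLC/PRF/5 at 1032 and 1042 CPM in control and at 885 and 997 CPM with lactate. Lactate libraries were the lower ones in all 3 lines, without overlap. The mean log2 fold change was -0.24 ± 0.10 (SE), with an adjusted p of 0.274 in edgeR and 0.0872 in DESeq2, which is not a call.

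RPL26L1, the paralogue of the large-subunit protein RPL26, was at 81 and 66.4 CPM in HLF control and at 54.3 and 58.1 CPM with lactate. It was at 49 and 64.2 CPM in SNU475 control and at 42.1 and 45.4 CPM with lactate, and at 46.7 and 44.4 CPM in PLC/PRF/5 control and at 42.7 and 39.2 CPM with lactate. Lactate libraries again lay lower in the 3 lines, beside the shares of all genes given above. Its mean log2 fold change was -0.30 ± 0.11 (adjusted p = 0.208, edgeR).

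RPS26, whose product lies where the mRNA leaves the small subunit, had a mean of -0.29 ± 0.14 (adjusted p = 0.336). RPS9, a protein of the small-subunit body, had -0.24 ± 0.14 (adjusted p = 0.45). With the block for replicate number RPS26 had the smallest adjusted p of the members, 0.0765, and again was not called. On the higher side, RPL9 had a mean of 0.05 ± 0.11 (adjusted p = 0.931, edgeR) and RPL3 one of 0.04 ± 0.13 (adjusted p = 0.976). In PLC/PRF/5 alone RPL9 was at 0.27 ± 0.19 and RPS15A at 0.28 ± 0.21, without a call.

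The stalk of the large subunit, which recruits elongation factors, is formed by RPLP0, RPLP1 and RPLP2. Their mean lactate effects were -0.10 ± 0.12, -0.08 ± 0.12 and -0.04 ± 0.16. RPL5 and RPL11, which carry 5S ribosomal RNA and bind MDM2 when ribosome assembly is disturbed, had -0.08 ± 0.14 and -0.03 ± 0.17. RPS6, the S6 kinase substrate, had -0.05 ± 0.13, and RPS27A, made as a fusion with ubiquitin, had -0.16 ± 0.14. None of these was called.

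The largest fitted lactate effect was that of RPL10L, a retrogene of RPL10 known from testis, and it rests on a handful of counts. RPL10L had 0 and 0 counts in HLF control and 5 and 4 with lactate, 8 and 7 in SNU475 control and 10 and 4 with lactate, and 15 and 15 in PLC/PRF/5 control and 31 and 26 with lactate. HLF with lactate was at least 2.69-fold above a floor of 3 counts over the control pair. The mean over lines had an adjusted p of 0.143, and the interaction an unadjusted p of 0.0297 and an adjusted p of 1. RPL39L had 0 and 0 counts in HLF control and 0 and 3 with lactate, for which no fold is given.

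Between untreated lines, ribosomal protein genes were lower in PLC/PRF/5. Against HLF, 36 of 83 members were lower, where 21.3% of all genes tested were, and 3 were higher, where 21.7% were. Those 3 include RPL10L, which passed the low-count filter only through PLC/PRF/5. The members' median log2 fold change was -0.59, with 65 below 0, beside 0 for all genes. Against SNU475, 41 members were lower, where 26.3% of all genes were, and 3 were higher, where 22.4% were, and the median was -0.57, with 73 below 0, beside -0.03. These comparisons share the PLC/PRF/5 controls, so they are not independent. The members called in either direction made up 47% and 53%, near the 43% and 48.7% of all genes, and the members' split between directions differed from that of all genes.

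How far below depends on the scale. On deposited TPM the members' median was -0.29 against HLF, where all genes lay at 0.13, and -0.02 against SNU475, where all genes lay at 0.30. On library totals it was -0.42 beside 0.08 for all genes, and -0.28 beside 0.18. The members' median minus that of all genes was -0.42 on TPM, -0.51 on library totals and -0.59 on scaled counts against HLF, and -0.32, -0.46 and -0.55 against SNU475. In bulk RNA, a lower share of these mRNAs and a higher share of others cannot be told apart.

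The number of calls moved with single libraries. Against HLF it was 39 with all libraries and 18 without HLF control 1, 18 without PLC/PRF/5 control 1 and 23 without PLC/PRF/5 control 2. It was 61 with the replicate block (9 higher, 52 lower), where 51.4% of all genes were called, and 59 without both SNU475 libraries numbered 2. Against SNU475 it was 44 with all libraries, 23 without PLC/PRF/5 control 1, 25 without PLC/PRF/5 control 2 and 23 without SNU475 control 2. A total of 17 calls against HLF and 21 against SNU475 kept their direction and threshold in each of the 12 fits that left out 1 library and under each other filter, scaling, tool or model tried on all 12.

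Of the large subunit, 22 of 46 genes were lower in PLC/PRF/5 than in HLF, where 21.3% of all genes were. In that comparison 0 were higher, where 21.7% of all genes were. Against SNU475, 27 of the 46 were lower and 1 higher, where 26.3% and 22.4% of all genes were. RPL13 (ENSG00000167526, chr16:89560657-89566828 in GENCODE 29 on GRCh38), a large-subunit protein, gave 1468 and 1338 CPM in HLF control, 811 and 758 CPM in SNU475 control, and 506 and 544 CPM in PLC/PRF/5 control. The 3 lines did not overlap, with PLC/PRF/5 the lowest. Of all genes tested, 38.1% lay wholly below HLF and 39.5% wholly below SNU475 in untreated PLC/PRF/5. Wholly above lay 37.7% and 38.4%. The log2 fold change of RPL13 in PLC/PRF/5 was -1.42 ± 0.18 against HLF (adjusted p = 9.19e-05, edgeR). Against SNU475 it was -0.58 ± 0.18 (adjusted p = 0.0205). The call against SNU475 was lost without any 1 of the 4 control libraries of those lines, with values from -0.62 to -0.52.

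RPL27 gave 430.3 and 358 CPM in HLF control, 413 and 492 CPM in SNU475 control, and 163 and 183 CPM in PLC/PRF/5 control. It was lower in PLC/PRF/5 by -1.19 ± 0.20 against HLF (adjusted p = 0.000517) and by -1.39 ± 0.20 against SNU475 (adjusted p = 0.000164). RPL23A, which lies beside the exit tunnel of the large subunit, gave 863 and 697 CPM in HLF control, 645 and 719.6 CPM in SNU475 control, and 308 and 342 CPM in PLC/PRF/5 control. PLC/PRF/5 lay below both other lines in every library for both genes, beside the shares of all genes given for RPL13.

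RPL23, one of the proteins that bind MDM2, gave 614 and 513 CPM in HLF control, 585 and 1115 CPM in SNU475 control, and 192 and 184 CPM in PLC/PRF/5 control. Its log2 fold change was -1.59 ± 0.31 against HLF and -2.18 ± 0.32 against SNU475 (adjusted p = 0.000205). The PLC/PRF/5 libraries agreed closely and the SNU475 libraries did not.

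Of the 5S particle, RPL5 gave 854 and 775 CPM in HLF control, 554 and 897 CPM in SNU475 control, and 318 and 364 CPM in PLC/PRF/5 control. RPL11 gave 648 and 609.9 CPM, 773 and 1240.0 CPM, and 346 and 349 CPM in the same order. Both were lower in PLC/PRF/5 than in HLF, by -1.26 ± 0.25 and -0.85 ± 0.29, and than in SNU475, by -1.09 ± 0.25 and -1.53 ± 0.29. Their adjusted p ran from 0.00132 to 0.0331. The RPL5 call against SNU475 was lost without SNU475 control 2 (-0.69). The RPL11 call against HLF was lost without either HLF control, either PLC/PRF/5 control or HLF lactate 1 (-0.89 to -0.77).

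Of the stalk genes, RPLP0 was at 1870.0 and 1972 CPM in HLF control, 1378 and 1396 CPM in SNU475 control, and 1278 and 1391 CPM in PLC/PRF/5 control, with no call between lines. RPLP1 was at 632 and 607 CPM, 643 and 692 CPM, and 694 and 769 CPM, also without a call. RPLP2 was at 512 and 484 CPM, 449 and 645 CPM, and 296 and 321 CPM, and was lower in PLC/PRF/5 than in SNU475 by -0.83 ± 0.28 (adjusted p = 0.0306). That call was lost without either PLC/PRF/5 control or SNU475 control 2 (-0.88 to -0.54) and on library totals (-0.53).

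Of the small subunit, 13 of 31 genes were lower in PLC/PRF/5 than in HLF, where 21.3% of all genes were, and RPS29 was higher. Against SNU475, 12 of the 31 were lower, where 26.3% of all genes were, and RPSA was higher. RPS6 gave 922 and 862 CPM in HLF control, 622 and 817 CPM in SNU475 control, and 340.3 and 378 CPM in PLC/PRF/5 control. It was lower in PLC/PRF/5 by -1.31 ± 0.24 against HLF (adjusted p = 0.000946) and by -1.0 ± 0.23 against SNU475 (adjusted p = 0.00445). RPS3A gave 1232 and 1052 CPM in HLF control, 496 and 614 CPM in SNU475 control, and 390.2 and 444 CPM in PLC/PRF/5 control, so HLF stood above both other lines. RPS3A was lower in PLC/PRF/5 than in HLF by -1.45 ± 0.24 (adjusted p = 0.000502).

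RPS10, mutated in Diamond-Blackfan anaemia, gave 626 and 551 CPM in HLF control, 782 and 875 CPM in SNU475 control, and 287 and 311 CPM in PLC/PRF/5 control. It was lower in PLC/PRF/5 than in SNU475 by -1.47 ± 0.20 (adjusted p = 0.000135). RPS29 gave 89.5 and 82.6 CPM in HLF control and 120.0 and 146 CPM in PLC/PRF/5 control, a log2 fold change of 0.63 ± 0.23 (adjusted p = 0.0467), and the call was lost without any 1 of the 8 HLF and PLC/PRF/5 libraries (0.48 to 0.77). RPS27A, at 545 and 503 CPM in HLF control, 476 and 542 CPM in SNU475 control and 400.0 and 421 CPM in PLC/PRF/5 control, was not called.

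RPSA and RPL29 were the 2 members outside the paralogues that were higher in PLC/PRF/5 than in SNU475. RPSA had a log2 fold change of 0.84 ± 0.18 (adjusted p = 0.00246) from the libraries given above. RPL29, a large-subunit protein also described as a heparin-binding protein, gave 530.0 and 435 CPM in HLF control, 200.4 and 213 CPM in SNU475 control, and 302 and 331 CPM in PLC/PRF/5 control. The lines did not overlap for RPL29, beside the shares of all genes given for RPL13. The log2 fold change of RPL29 in PLC/PRF/5 was 0.61 ± 0.18 against SNU475 (adjusted p = 0.0155) and -0.61 ± 0.18 against HLF (adjusted p = 0.0181). The first call was lost without PLC/PRF/5 control 2 (0.56) or SNU475 control 1 (0.57), and the second without HLF control 1 or either PLC/PRF/5 control (-0.67 to -0.42).

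A total of 26 members (31.3%) was lower in PLC/PRF/5 against both other lines, where 12.6% of all genes were, and 28 (33.7%) were called against neither, where 36.2% of all genes were. The 2 comparisons share the PLC/PRF/5 controls. The first set holds RPL5, RPL10, RPL11, RPL13, RPL19, RPL23, RPL23A, RPL26, RPL27, RPL36A, RPL39, RPS4X, RPS6, RPS10, RPS18, RPS23 and RPS24 among others. The second holds RPL4, RPL14, RPL15, RPL18, RPL28, RPL41, RPLP0, RPLP1, RPS9, RPS12, RPS16, RPS19 and RPS27A among others.

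Between HLF and SNU475 calls went in both directions. Of 83 members, 9 were higher in HLF, where 17.2% of all genes tested were, and 11 were lower, where 21.9% were. The median log2 fold change was -0.05, beside 0 for all genes, and it became 0.17 without SNU475 control 2, 0.03 without HLF control 2 and 0.18 on TPM, beside 0.14 for all genes. The number called was 20, and it was 13 without HLF control 1, 9 without HLF control 2 and 32 with the replicate block (13 higher, 19 lower), where 49.0% of all genes were called. A total of 8 of the 20 calls, those of RPL9, RPL10L, RPL13, RPL29, RPL30, RPL39L, RPS3A and RPS27L, kept their direction and threshold in each fit that left out 1 library and under each other filter, scaling, tool or model tried on all 12.

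RPL29 was higher in HLF than in SNU475 by 1.22 ± 0.18 (adjusted p = 0.000351). RPL9, a large-subunit protein, gave 542 and 471 CPM in HLF control and 201 and 222 CPM in SNU475 control, and was higher in HLF by 1.26 ± 0.20 (adjusted p = 0.000471). RPL13 was higher by 0.84 ± 0.18 (adjusted p = 0.00373) and RPS3A by 1.04 ± 0.24 (adjusted p = 0.00485). RPL30, which binds kink-turn RNA, gave 250.1 and 225 CPM in HLF control and 405 and 428 CPM in SNU475 control, and was lower in HLF by -0.81 ± 0.17 (adjusted p = 0.00283). RPL7 was lower in HLF by -1.0 ± 0.24 (adjusted p = 0.0062) and RPL8 by -0.95 ± 0.24 (adjusted p = 0.0093). The RPL7 call was lost without HLF control 2 (-0.89), and the RPL8 call without HLF control 2 (-0.86) or SNU475 control 2 (-0.81).

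Ribosomal protein genes are scattered over the genome, and the differences between lines followed the chromosome in places. All 4 members on chromosome 8 (RPL7, RPL8, RPL30 and RPS20) were called lower in HLF than in SNU475, beside 21.9% of all genes tested. Their median was -0.88, where 605 other genes of that chromosome had a median of -0.50. All 3 on chromosome 16 (RPL13, RPS2 and RPS15A) were called higher in HLF, beside 17.2% of all genes. Their median was 0.84, where 861 other genes had 0.78. All 6 on chromosome 17 (RPL19, RPL23, RPL23A, RPL26, RPL27 and RPL38) were called lower in PLC/PRF/5 than in SNU475, beside 26.3% of all genes. Their median was -1.27. Against HLF 5 of the 6 were called lower, beside 21.3% of all genes, and RPL38 was at -0.41 without a call. The 1048 other genes of chromosome 17 had medians of -0.09 and -0.26 in these comparisons, so they did not share that size of difference.

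All 4 members on the X chromosome (RPL10, RPL36A, RPL39 and RPS4X) were called lower in PLC/PRF/5 than in both other lines. Of all genes, 21.3% were called lower than in HLF and 26.3% lower than in SNU475. The median of the X members was -1.25 against HLF, beside -0.21 for 620 other genes, and -1.36 against SNU475, beside -0.45. The RPL10 call against SNU475 was lost in 9 of the 12 fits without 1 library (-0.77 to -0.45), all but those without SNU475 control 1 or a SNU475 lactate library. The RPL39 call against HLF was lost without HLF control 1 or PLC/PRF/5 control 1 (-1.13 to -1.03). On chromosome 3 the 7 members had medians of -0.10 and 0.25 in the same comparisons, beside 0.48 and 0.51 for 929 other genes. Over 21 chromosomes with a member, the members' medians correlated with those of the other genes at r = 0.46 for PLC/PRF/5 against HLF, 0.44 for PLC/PRF/5 against SNU475 and 0.72 for HLF against SNU475 (Spearman's rho 0.45, 0.38 and 0.61). These are descriptions of medians over few members each, from the same 6 libraries, and copy number was not measured.

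**Figure D4:**
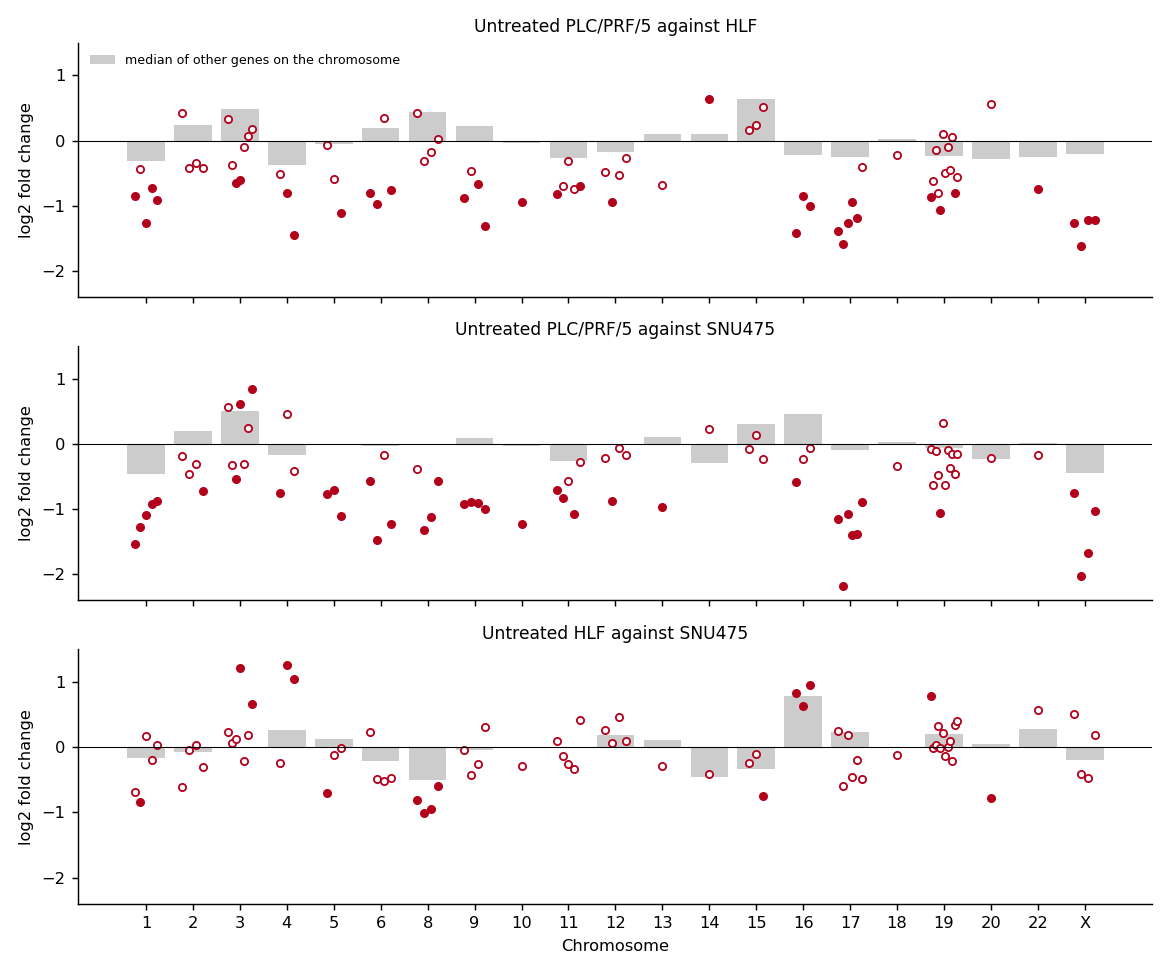
Log2 fold change of each ribosomal protein gene outside the paralogues between untreated lines, by chromosome; filled points are calls and grey bars are the median of the other genes tested on that chromosome. In HLF against SNU475 the 4 points of chromosome 8 lie below 0 and the 3 of chromosome 16 above 0 as do their bars, and 5 of the 6 points of chromosome 17 in the panel of PLC/PRF/5 against HLF are calls below their bar.

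Of the 6 paralogues tested, 3 were called in PLC/PRF/5 against HLF and 3 against SNU475, beside 43% and 48.7% of all genes. RPL39L is a copy of RPL39, a small basic protein beside the exit tunnel, and is known from male germ cells. RPL39L had 0 and 0 counts in HLF control, 294 and 266 in SNU475 control, and 21 and 30 in PLC/PRF/5 control. With lactate the counts were 0 and 3, 206 and 223, and 71 and 24. RPL39L was thus at or near 0 in every HLF library. SNU475 stood above PLC/PRF/5 without overlap, as it did for 39.5% of all genes tested between controls. Against the floor of 3 counts over the HLF control pair, PLC/PRF/5 was at least 17.6-fold higher and HLF was at least 208-fold lower than SNU475. The adjusted p was 0.000569 and 1.93e-05. Between PLC/PRF/5 and SNU475 the log2 fold change was -3.56 ± 0.55 (adjusted p = 0.000399).

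Its parent RPL39 gave 322 and 267 CPM in HLF control, 312 and 501 CPM in SNU475 control, and 120.2 and 134 CPM in PLC/PRF/5 control. RPL39 was thus present in HLF, where RPL39L had 0 to 3 counts in a library. The coding sequences of the pair in GENCODE 29 are 156 bases long and differ at 8 positions (94.9% identity), with the differences in capitals below. They are shown because reads can be told apart only where they cover a difference. The longest stretch they share is 44 bases, and the untranslated parts are not compared here.

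RPL39: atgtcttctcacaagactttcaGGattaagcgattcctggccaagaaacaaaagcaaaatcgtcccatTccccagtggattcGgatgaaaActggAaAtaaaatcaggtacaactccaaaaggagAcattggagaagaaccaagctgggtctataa
RPL39L: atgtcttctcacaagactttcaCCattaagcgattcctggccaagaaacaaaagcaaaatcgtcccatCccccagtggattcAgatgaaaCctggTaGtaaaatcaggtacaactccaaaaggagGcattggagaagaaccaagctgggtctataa

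RPS27L, a p53-responsive copy of RPS27, was highest in SNU475. It gave 17.1 and 16.7 CPM in HLF control, 96.1 and 124 CPM in SNU475 control, and 26.2 and 28 CPM in PLC/PRF/5 control. With lactate it gave 15.2 and 22.1 CPM, 75.4 and 119 CPM, and 34.5 and 26.9 CPM. RPS27L was lower in HLF than in SNU475 by -2.70 ± 0.28 (adjusted p = 2.32e-05) and lower in PLC/PRF/5 than in SNU475 by -2.02 ± 0.27 (adjusted p = 0.000109). RPS27 itself was at 372 and 352 CPM in HLF control, 394 and 434 CPM in SNU475 control, and 222 and 216 CPM in PLC/PRF/5 control. RPS27 was not called between HLF and SNU475 (-0.19 ± 0.18, adjusted p = 0.434). The coding sequences of RPS27 and RPS27L, 255 bases each, differ at 56 positions (78% identity).

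RPL22L1 showed the opposite order to RPL22. RPL22L1 gave 26 and 26.6 CPM in HLF control, 8.04 and 14.6 CPM in SNU475 control, and 38.6 and 40.8 CPM in PLC/PRF/5 control. RPL22 gave 328 and 298 CPM, 436 and 679.8 CPM, and 230.1 and 233 CPM in the same groups. SNU475 was thus lowest for the paralogue and highest for the parent, and PLC/PRF/5 the reverse. PLC/PRF/5 against HLF was called for neither gene in edgeR. It gave 0.59 ± 0.40 for RPL22L1 (adjusted p = 0.259) and -0.44 ± 0.28 for RPL22 (adjusted p = 0.243). PLC/PRF/5 against SNU475 gave 1.81 ± 0.42 for RPL22L1 (adjusted p = 0.00395) and -1.27 ± 0.29 for RPL22 (adjusted p = 0.00365), and HLF against SNU475 gave 1.22 ± 0.41 (adjusted p = 0.035) and -0.83 ± 0.28 (adjusted p = 0.0366). The RPL22L1 call in HLF was lost without any 1 HLF library, either PLC/PRF/5 control or SNU475 control 1 (0.85 to 1.22). The RPL22 call in HLF was lost without any 1 HLF or PLC/PRF/5 library or SNU475 control 2 (-0.94 to -0.49).

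RPL10L, with the counts given above, was at least 10.3-fold higher in PLC/PRF/5 than in HLF and at least 5.56-fold lower in HLF than in SNU475, against the same kind of floor. It passed the low-count filter only through its PLC/PRF/5 counts, so its call there against HLF was not independent of the filter. Its coding sequence matches that of RPL10 at 89.3% of bases, with an identical stretch of 50 bases, so assignment of its few counts is uncertain. RPL26L1 was lower in PLC/PRF/5 than in HLF by -0.69 ± 0.19 (adjusted p = 0.0123), as was RPL26 by -0.94 ± 0.25 (adjusted p = 0.00978). RPL7L1, at 59.6 TPM on average, was not called between any 2 lines, while RPL7 was lower in PLC/PRF/5 than in SNU475 by -1.32 ± 0.24 (adjusted p = 0.000917). RPL3L, the muscle form of RPL3, had at most 5 counts in a library. RPL3 was lower in PLC/PRF/5 than in HLF by -0.74 ± 0.23 (adjusted p = 0.0204). The calls of RPL26L1, RPL26 and RPL3 against HLF were lost without HLF control 1 or either PLC/PRF/5 control, with values from -0.73 to -0.51, from -0.95 to -0.715 and from -0.81 to -0.62.

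**Figure D5:**
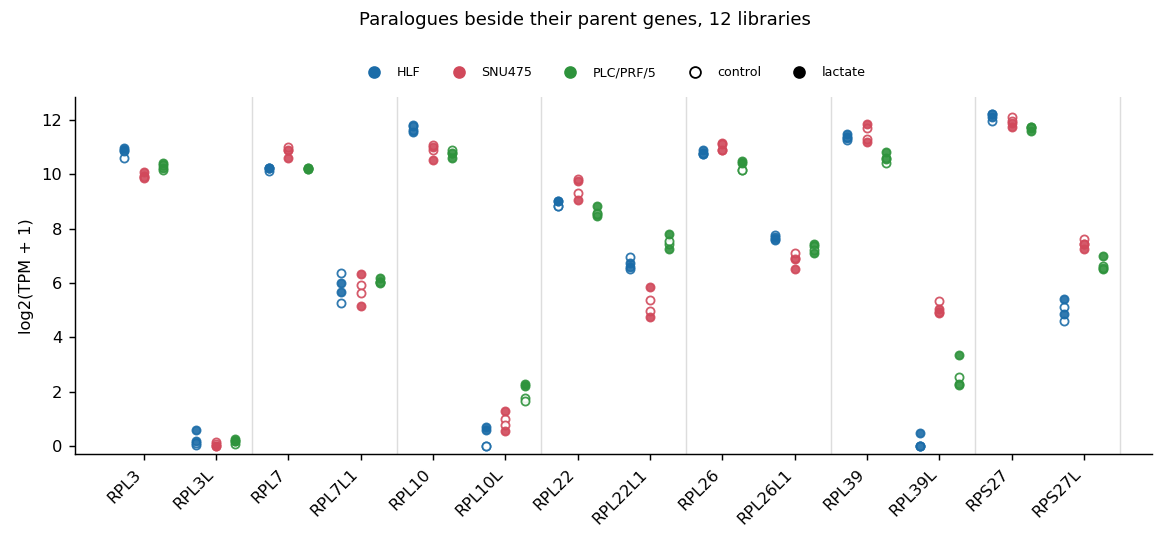
log2(TPM + 1) of the 7 paralogues beside their parent genes in each of the 12 libraries, coloured by line, open for control and filled for lactate. RPL39L lies at or near 0 in HLF and highest in SNU475, RPS27L is highest in SNU475 and RPL22L1 lowest there.

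Ribosomal proteins can also be carried by genes outside the symbol rule. RACK1 was lower in PLC/PRF/5 than in HLF by -0.62 ± 0.23 (adjusted p = 0.0434) and FAU, made as a fusion with a ubiquitin-like protein, was lower in PLC/PRF/5 than in SNU475 by -0.55 ± 0.21 (adjusted p = 0.0472). With lactate RACK1, FAU and RPL36AL had no unadjusted p under 0.05 in edgeR and were not called in DESeq2. The RACK1 call was lost without HLF control 1, either HLF lactate library or any 1 PLC/PRF/5 library (-0.64 to -0.39), and the FAU call without any 1 library but the SNU475 lactate pair (-0.61 to -0.485).

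Of 15 translation factors and other mRNAs known to begin with an oligopyrimidine tract, 11 were lower in PLC/PRF/5 than in HLF and 0 higher (median -0.88), where 21.3% of all genes were lower. Against SNU475, 8 were lower and 0 higher (median -0.51), where 26.3% of all genes were lower, and 7 were not called. TPT1, which encodes the translationally controlled tumour protein, was lower in PLC/PRF/5 by -1.53 ± 0.22 against HLF (adjusted p = 0.000224) and by -1.88 ± 0.23 against SNU475 (adjusted p = 5.29e-05). EEF1G, a subunit of elongation factor 1, was lower than in HLF by -1.11 ± 0.19. EIF3H, a subunit of initiation factor 3, was lower than in SNU475 by -1.52 ± 0.21. With lactate the median of the mean effect was -0.11, and 1 gene had an unadjusted p under 0.05 in edgeR, beside 15.8% of all genes. For that mean edgeR and DESeq2 called 0. The replicate block called NPM1, the nucleolar protein nucleophosmin, as lower, beside 6.91% of all genes.

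The mitochondrial ribosomal proteins build a separate ribosome. Of 78 genes, 20 (25.6%) were lower and 9 higher in PLC/PRF/5 than in HLF (median -0.25), and 28 (35.9%) were lower and 9 higher than in SNU475 (median -0.24), beside 21.3% and 26.3% of all genes lower. With lactate none was called in edgeR, and the medians were -0.29 in HLF, -0.15 in SNU475, -0.05 in PLC/PRF/5 and -0.17 for the mean over lines, where 18 had an unadjusted p under 0.05. Of all genes 15.8% had such a p. For that mean DESeq2 called 5 of the 78 and the replicate block 3, all lower, beside 5.16% and 6.91% of all genes, and in HLF DESeq2 called 1 lower.

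Chaperones of new ribosomal proteins and ribosome assembly factors were mostly below 0 with lactate, and whether any was called depended on the fit. Of 11 genes, 10 had a mean effect below 0 (median -0.32), where 8411 of all 18355 genes tested did. An unadjusted p under 0.05 was found for 5, beside 15.8% of all genes, and 0 passed the edgeR test. MRTO4, an assembly factor that holds the place of RPLP0, had -0.61 ± 0.13 (adjusted p = 0.0667), GRWD1, the RPL3 chaperone, -0.57 ± 0.18 (adjusted p = 0.144), and TSR2, the RPS26 chaperone, -0.41 ± 0.12 (adjusted p = 0.126). DESeq2 called MRTO4 (adjusted p = 0.00109) and TSR2 (adjusted p = 0.024), and edgeR with the replicate block called MRTO4 (adjusted p = 0.0125), GRWD1 (adjusted p = 0.00848), TSR2 (adjusted p = 0.0495) and RRS1. Those fits called 5.16% and 6.91% of all genes.

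Hosts of small nucleolar RNAs include GAS5 and several SNHG genes with oligopyrimidine tracts. Of 10, 1 was higher and 1 lower in PLC/PRF/5 than in HLF (median -0.27), and 3 were higher and 1 lower than in SNU475 (median 0.57). Of all genes, 21.7% were higher and 21.3% lower than in HLF, and 22.4% higher and 26.3% lower than in SNU475. SNHG5 was higher in PLC/PRF/5 by 1.52 ± 0.22 against HLF (adjusted p = 0.000204) and by 2.66 ± 0.23 against SNU475 (adjusted p = 4.44e-06), and GAS5 was lower than in HLF by -1.13 ± 0.28. The GAS5 call was lost without HLF control 1 or PLC/PRF/5 control 1 (-0.95 to -0.94). Of 10 regulators of these mRNAs, 3 were higher and 0 lower in PLC/PRF/5 than in HLF, and 5 were higher and 1 lower than in SNU475. The shares of all genes are those given for the hosts. EIF4EBP2, a repressor of cap-dependent initiation, was higher in PLC/PRF/5 than in HLF by 1.15 ± 0.20 (adjusted p = 0.00084). RPS6KB2, an S6 kinase and the only lower one, was lower in PLC/PRF/5 than in SNU475 by -2.38 ± 0.21 (adjusted p = 4.41e-06). None of the hosts or regulators was called with lactate in edgeR, DESeq2 or the fit with the replicate block. In edgeR 0 hosts and 1 regulator had an unadjusted p under 0.05 for the mean over lines, beside 15.8% of all genes.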

How the data were processed

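The authors deposited 1 RSEM gene table per library. Expected counts (estimated counts that need not be whole), TPM and effective lengths were read from it, per the file headers. STAR and RSEM, FastQC and DESeq2 stand in the submitters' processing notes, with no version, as do mouse builds, whereas all 62757 row identifiers were human. The human build is not given in the sources used here, nor is whether counting used strand.

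The 47 pseudoautosomal Y rows were added to their X copies. Expected counts were rounded, filtered with filterByExpr by group and scaled by TMM. A quasi-likelihood model (edgeR 4.0.16 in R 4.3.3) was fitted to all 12 libraries as 6 groups, with 6 residual degrees of freedom and a common biological coefficient of variation of 0.26. P-values were adjusted by Benjamini-Hochberg over 18355 genes. Errors are SE of the fit, or SD of 2 libraries. CPM used the scaled sizes. The code was tested on simulated data. The floor of 3 counts covers counting error only. Gene coordinates came from GENCODE 29, matched by Ensembl identifier for all 84 members.

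RSEM divides reads among near-identical copies. The 1405 pseudogenes named after a member held 0.020% to 0.054% of counts, so splits between a member and these copies are small as deposited, but unassigned reads are not seen. Levels of members with read-through or overlapping genes (RPL17, RPL36A and others) are uncertain.

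Named genes were, for each untreated comparison and the lactate mean, the 4 higher and 4 lower members with the smallest p. Those of lactate in single lines were picked alike, and most of their values are not reported here. Added to them were a standing set (stalk, 5S particle, RPS6, RPSA, RPS27A, paralogues and parents), the 5 highest by mean TPM and the 5 lowest tested. Up to 3 genes of each other list were also named. Other genes were chosen for naming after seeing their values. Some members are not reported here by name. Members and lists were chosen with earlier results of these data known. Deviations of same-numbered libraries correlated at 0.101 (HLF), 0.446 (SNU475) and 0.132 (PLC/PRF/5), all above 0.1 but barely so in HLF. On that basis the numbers in the titles were taken to pair libraries, though the main fit had no block for the pairs. In HLF the members' median difference between libraries 1 and 2 had opposite signs, 0.16 in control and -0.21 with lactate. The pairing is thus least certain there. With the block the median SE of a member for lactate in SNU475 was 0.157 in place of 0.245, RPL10L and RPL39L aside. For PLC/PRF/5 both libraries titled 2 carry another number, the same in control and lactate, in the names of the deposited tables, and the block, set within each line, has the same pairs under either numbering. The block for them was an alternative. Others were the filter, RLE factors, library totals, TMM without the members, DESeq2 1.42.0, effective-length offsets, added pseudogene counts, only the groups compared and each library left out.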

Additional observations from a re-analysis of the deposited data

How the results depend on the processing

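No member was called for lactate under any alternative run. Untreated, calls ranged from 18 to 52 for PLC/PRF/5 against HLF, from 23 to 49 for PLC/PRF/5 against SNU475 and from 9 to 27 for HLF against SNU475 when 1 library was left out. The replicate block raised them to 61 for PLC/PRF/5 against HLF and 32 for HLF against SNU475, and moved no other count of members by over 1.5 times. Leaving out both SNU475 libraries numbered 2, chosen after seeing the data, gave 59 for PLC/PRF/5 against HLF and a median of -0.344 against SNU475. With 1 library left out, lactate medians spanned -0.276 to -0.043 (HLF), -0.524 to 0.218 (SNU475), -0.013 to 0.085 (PLC/PRF/5) and -0.201 to 0.033 for the mean, and the untreated medians from -0.729 to -0.425, -0.725 to -0.347 and -0.261 to 0.17 (PLC/PRF/5 against HLF, against SNU475, and HLF against SNU475). On TPM, chosen after seeing the data, the medians were 0.028 (lactate in HLF), 0.093 (lactate in PLC/PRF/5), -0.292, -0.02 and 0.18 (untreated, same order). On library totals they were 0.099 (lactate in PLC/PRF/5), -0.42 and -0.279 (PLC/PRF/5 against HLF and SNU475). All genes shifted with these scales. The member share outside mitochondrial genes was 5.25% (HLF control), 4.99% (SNU475 control) and 4.13% (PLC/PRF/5 lactate), and the share of TPM 14.5%, 14.8%, 12.9%, 11.9%, 12.5% and 13.3% (HLF, SNU475, PLC/PRF/5, control before lactate). Reversed signs met values near 0 that were not calls: RPL9 -0.016 and RPL3 -0.038 for the lactate mean without both SNU475 libraries numbered 2. On library totals, RPL7L1 was 0.063 (PLC/PRF/5 against HLF), RPL3 0.122 and RPLP0 0.227 (against SNU475), and RPLP1 0.012 (HLF against SNU475). With effective-length offsets, RPLP0 was 0.001 (PLC/PRF/5 against SNU475) and RPL5 -0.102 (HLF against SNU475). RPLP2 was 0.104 without both numbered 2, and RPS27A -0.013 with RLE factors or DESeq2 (both HLF against SNU475). With 1 library left out, RPL9 spanned -0.039 to 0.127 and RPL3 -0.074 to 0.14 (lactate mean), RPL7L1 -0.305 to 0.237 (PLC/PRF/5 against HLF), RPLP0 -0.11 to 0.01 (PLC/PRF/5 against SNU475), and RPL5 -0.138 to 0.54, RPLP2 -0.372 to 0.132, RPS27A -0.051 to 0.12 and RPL7L1 up to 0.017 (HLF against SNU475). The cause of these moves was not tested. With 2 libraries per group, shifts of the set by 0.1 to 0.2 cannot be told from library differences. In SNU475 libraries 1 and 2 differed by -0.43 in control and -0.70 with lactate over the set. The lactate and untreated medians that use SNU475 carry this wider limit. A group left with 1 library is assumed to vary like the others.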
